A study of Mus musculus with 4 samples.

Results

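The 7 genes described here, Acta2, Cnn1, Tagln, Myh11, Mylk, Des and Oxtr, encode parts of the smooth muscle type of contractile apparatus and a receptor that drives it. They were taken by symbol from the 32285 genes listed in 1 single-cell RNA sequencing (scRNA-seq) matrix of the mouse submandibular gland (SMG) and sublingual gland (SLG), and 6 of the 7 had at least 1 UMI, against 19290 of all genes. A UMI (unique molecular identifier) marks 1 captured RNA molecule. The genes were compared between barcodes that carried a basal keratin transcript, Krt5 or Krt14, and barcodes that did not. Of 15707 barcodes, each standing for 1 droplet called a cell, 260 were contractile, and of these 78 were keratin-positive and 182 keratin-negative.

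Contraction of this type runs on filaments of smooth muscle actin and smooth muscle myosin. A rise in calcium activates myosin light chain kinase, the kinase phosphorylates the regulatory light chain, and the myosin then pulls on actin. In salivary glands it is known from both epithelial and vascular cells. Myoepithelial cells are epithelial, lie between the acini and the basement membrane, hold basal keratins and squeeze saliva out of the acini. Mural cells, the smooth muscle cells and pericytes of blood vessels, hold no basal keratin and set vessel width.

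The cells came from SMG and SLG of female C57BL/6N wild types, 6 to 8 weeks old and given no treatment, deposited as 4 samples. The number of mice is 2 by the labels and 3 by the study's methods, and as all barcodes end in the same suffix, none was assigned to a mouse, a gland or a sample. The matrix was therefore treated as 1 sample with no test between groups, and every interval below covers counting error only, at 95%. The median depth was 2608 UMIs per barcode, ranging from 1374 to 141509.

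A barcode was called contractile when it had at least 3 UMIs over the 7 genes, from at least 2 of them, and at least 10 such UMIs per 10000. Because the genes themselves chose these barcodes, their presence there is not a finding, and only the differences between the keratin classes, the mix of genes and other genes are of interest. The keratin-positive barcodes were deeper, with a median of 4385 UMIs and 1615.5 genes, than the keratin-negative ones, with 1999.5 UMIs and 784 genes. Of the keratin-positive barcodes, 35 had both keratins, 37 had Krt14 alone and 6 had Krt5 alone. The keratin call depends on depth, as thinning each contractile barcode to 1000 UMIs left 48 keratin-positive.

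Clusters made without the 7 genes and both keratins separated the groups further. The basal or myoepithelial-like cluster of 219 barcodes held 54 of the 78 keratin-positive contractile barcodes, and the mural-like cluster of 85 barcodes held 85 of the 182 keratin-negative ones. Every barcode of the mural-like cluster was contractile and none had a UMI of either keratin, which allows a share of up to 4.25% (exact binomial). The other keratin-negative barcodes were more mixed. The endothelial-like cluster held 34 of them, ductal-like clusters 20 and unnamed clusters 40, and their median sums over the 7 genes were 7, 5 and 3 UMIs, against 45 UMIs in the mural-like cluster.

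Cell type markers in these groups are given as a description, since the same lists were used to name the clusters and so cannot check the names. In the keratin-positive barcodes of the basal or myoepithelial-like cluster all 10 basal or myoepithelial markers had UMIs, among them Krt17 with 121, Trp63, a transcription factor of basal epithelium, with 46, and the hemidesmosome collagen gene Col17a1 with 31. There, 7 of the 14 mural markers in the matrix had UMIs, with 18 UMIs in all, and Rgs5, Pdgfrb and Ndufa4l2 were at 0. In the mural-like cluster the same mural list had 1127 UMIs from 14 genes, led by Rgs5 with 356 and Ndufa4l2 with 202. The 10 basal or myoepithelial markers had 36 UMIs there from 3 genes, and Krt17, Trp63 and Col17a1 were at 0. Itgb4 and Lamb3 had 1 UMI each and Dst had the rest. Dst had 37 UMIs in the keratin-positive barcodes of the basal or myoepithelial-like cluster, which held 320463 UMIs in all against 181409. Of the narrower lists, the 7 pericyte genes had 517 UMIs in the mural-like cluster, most of them Rgs5 (356) and Cox4i2 (107), while Kcnj8, Abcc9 and Vtn had 1, 2 and 2. The 8 smooth muscle genes had 309 UMIs, among them Casq2, which encodes a calcium store protein of the sarcoplasmic reticulum, with 47, and Rergl was at 0. Summed mural marker levels in the 85 barcodes ran from 8.00 to 188 UMIs per 10000. Skeletal muscle markers had 3 UMIs in keratin-positive and 0 in keratin-negative contractile barcodes. Serous acinar genes were present in every group, at median levels of 574 per 10000 in the keratin-positive barcodes of the basal or myoepithelial-like cluster, 707 in the mural-like cluster and 729 in lymphoid-like barcodes, which do not make them. The mean UMIs per lymphoid-like barcode of each of the 6 detected members was taken away from the contractile barcodes. The log2 ratios between all keratin-positive and keratin-negative contractile barcodes stayed as they are given below. That mean was at most 0.00439, for Acta2, which is too small to move the ratios. This step was not done for the other comparisons.

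Acta2 encodes smooth muscle alpha-actin, the actin of the thin filament, and lies at chr19:34241090-34255590 on the minus strand (GRCm38). It had 4469 UMIs in 699 barcodes, and 82.8% of them were in contractile barcodes. The count per barcode ran from 1 to 50 with a median of 14 in the keratin-positive group and from 0 to 152 with a median of 7 in the keratin-negative group, so the groups overlapped over most of their range. The summed level was 22.7 UMIs per 10000 (95% interval 21.4 to 24.0) against 50.6 (48.7 to 52.7), or 2.23-fold lower in the keratin-positive group. The direction depends on the scale, because the mean per barcode was higher in the deeper keratin-positive group, 15.9 against 13.5 UMIs. It also depends on which barcodes are compared. The 97 keratin-negative barcodes outside the mural-like cluster were at 10.8 (9.65 to 12.0), below the whole keratin-positive group. The median level over barcodes was 21.7 against 24.3. The other clusters' keratin-negative barcodes were below the keratin-positive group in Tagln (8.09), Myh11 (3.90) and Mylk (2.88) as well.

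The 300 bases around the Acta2 start that RefSeq gives (GRCm38.p6, 250 before and 50 after it) were searched on both strands for the CArG box, the site of serum response factor in many contractile genes. The box is CC, then 6 bases that are A or T, then GG, and reads the same on both strands. Such a box was in 1.63% of all 32851 windows and in none of the 5 members with a window (Acta2, Cnn1, Mylk, Oxtr and Des), while 8 of 72 other genes of the contraction pathway had one. With 1 other letter allowed in the core, a form chosen after the strict search, 9.98% of windows had a match, and of the members Acta2 alone had any. Both of its matches are shown because Acta2 is the most abundant member, followed by the start region of Myl9, the regulatory light chain gene whose pattern over clusters was nearest to Acta2 among genes other than the members and which held a strict box. Capitals mark the boxes, and positions count from the RefSeq start.
Acta2, chr19:34255438-34255467, minus strand, box from -84: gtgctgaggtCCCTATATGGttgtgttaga
Acta2, chr19:34255388-34255417, minus strand, box from -34: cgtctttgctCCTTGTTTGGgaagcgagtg
Myl9, chr2:156775284-156775383, plus strand, strict box from -161 and the other from -99: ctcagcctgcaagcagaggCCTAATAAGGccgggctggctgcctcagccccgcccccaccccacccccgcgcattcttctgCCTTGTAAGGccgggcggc
A match is a description of letters, and whether these sites are used was not tested in these data. The GENCODE model of Acta2 starts 217 bases further upstream than the RefSeq start.

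Cnn1 and Tagln encode actin-binding proteins, and they differed in direction. Cnn1 encodes calponin, which lies along the thin filament and slows the myosin motor, and is at chr9:22099216-22109630 on the plus strand. It was the only detected member with the higher level in keratin-positive barcodes, 3.39 per 10000 (2.92 to 3.92) against 1.32 (1.01 to 1.68), 2.58-fold higher with an interval of 1.93 to 3.48. Counts per barcode ran from 0 to 12 with a median of 2 in the keratin-positive group and from 0 to 7 with a median of 0 in the keratin-negative group. After thinning every barcode to 500 UMIs, 21.8% (13.2 to 32.6) of keratin-positive and 6.04% (3.06 to 10.6) of keratin-negative barcodes had a UMI of Cnn1, against 78.2% and 24.2% before thinning. None of 1138 lymphoid-like barcodes, with a median of 1815 UMIs, had one. Per barcode the difference was larger, 2.37 against 0.352 UMIs on average. It did not hold for whole clusters, where Cnn1 was lower in the basal or myoepithelial-like than in the mural-like cluster, 1.05 against 2.37 per 10000, since most barcodes of the former were not contractile.

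Tagln encodes transgelin, a calponin-related protein that cross-links actin, and lies at chr9:45929619-45936058 on the minus strand. Its counts ran from 0 to 29 with a median of 4.5 in keratin-positive barcodes and from 0 to 113 with a median of 5 in keratin-negative ones. The level was 10.8 per 10000 (9.94 to 11.7) against 35.6 (34.0 to 37.3), 3.30-fold lower in the keratin-positive group (interval 3.00 to 3.63). The mean per barcode had the same direction, 7.55 against 9.53 UMIs.

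Myh11, the smooth muscle myosin heavy chain gene at chr16:14194535-14291372 on the minus strand, had counts from 0 to 33 with a median of 3 in keratin-positive and from 0 to 40 with a median of 2 in keratin-negative barcodes. Its level was 5.30 per 10000 (4.71 to 5.95) against 14.4 (13.4 to 15.5), 2.72-fold lower in the keratin-positive group. The means per barcode, 3.71 and 3.86 UMIs, were within counting error of each other.

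Mylk encodes the myosin light chain kinase and lies at chr16:34745210-35002420 on the plus strand. Counts ran from 0 to 14 with a median of 3 in keratin-positive barcodes and from 0 to 13 with a median of 1 in keratin-negative ones. The level was 4.95 per 10000 (4.38 to 5.58) against 8.03 (7.26 to 8.87), the smallest difference of the 6 detected members, at 1.62-fold lower in the keratin-positive group. It turned to the other direction per barcode, at 3.46 against 2.15 UMIs, and was near 0 on the median over barcodes.

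Des encodes desmin, the intermediate filament protein of muscle, and lies at chr1:75360329-75368579 on the plus strand. It was almost confined to the keratin-negative group among contractile barcodes. The 78 keratin-positive barcodes had 3 UMIs in 2 barcodes, at most 2 in any of them, and the 182 keratin-negative barcodes had 139 UMIs in 71 barcodes, at most 7 in any of them. The levels were 0.0550 (0.0113 to 0.161) and 2.86 (2.40 to 3.37) per 10000, a log2 ratio of -5.70 with an interval from -7.99 to -4.12. In 1 random thinning of every barcode to 500 UMIs this ratio was -2.64. That draw kept Des in both keratin-positive barcodes and in 25 keratin-negative ones. With at most 3 keratin-positive UMIs to draw from, the value cannot tell how the difference depends on depth. In the mural-like cluster 71.8% (61.0 to 81.0) of barcodes had a UMI of Des, and 29.4% after thinning to 500 UMIs. None of the lymphoid-like barcodes had one.

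Oxtr encodes the oxytocin receptor, through which myoepithelial cells of the mammary gland contract, and lies at chr6:112473683-112489943 on the minus strand. It had 0 UMIs in all 15707 barcodes, which allows a share of up to 0.0191% of barcodes with a UMI by a floor of 3 counts and 0.0235% by the exact binomial interval. In the 78 keratin-positive contractile barcodes the limit of 3 counts corresponds to a level of 0.0550 per 10000. No fold was computed for it.

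**Figure D1:**
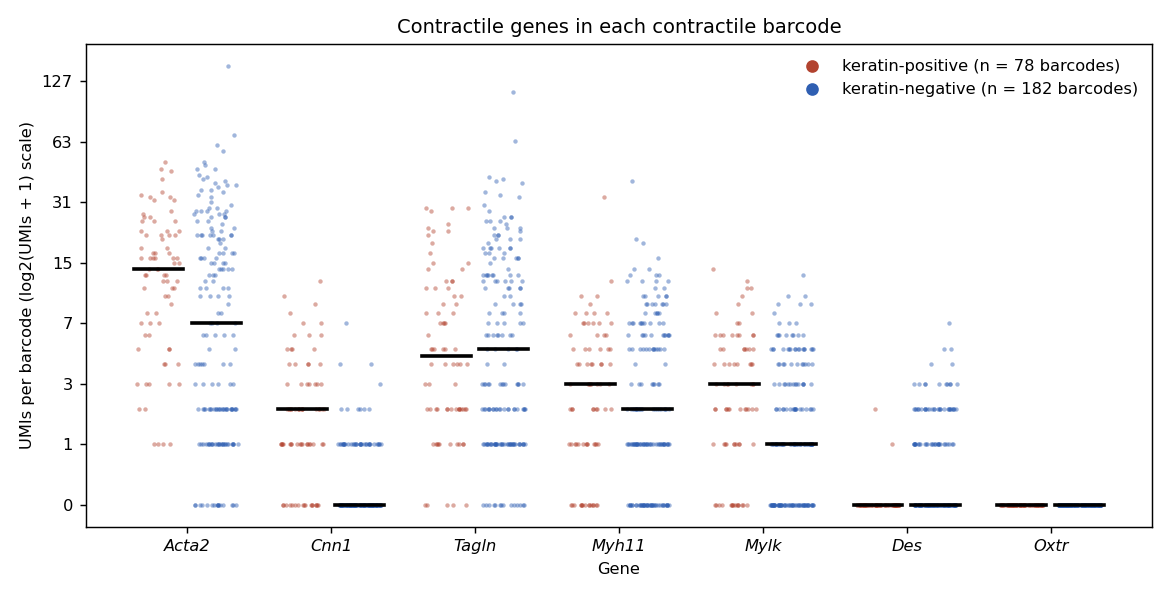
UMIs of each of the 7 genes (x axis) in every contractile barcode (y axis, log2(UMIs + 1) scale), keratin-positive in red (n = 78) and keratin-negative in blue (n = 182), with black bars at the medians. The groups overlap for Acta2, Tagln, Myh11 and Mylk, Cnn1 has a median of 2 against 0, Des is seen in 2 against 71 barcodes, and Oxtr is at 0 throughout.

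Across the fold limit of 2, 1 of the 6 tested members (Cnn1) was higher in keratin-positive and 4 (Acta2, Tagln, Myh11 and Des) were higher in keratin-negative barcodes. On medians over barcodes 3 of these 4 fell short of the limit, with log2 ratios of -0.17 for Acta2, -0.70 for Tagln and -0.71 for Myh11, and after thinning to 500 UMIs Acta2 was at -0.48. Of all 7465 genes with at least 10 UMIs over both groups, 19.5% passed the limit toward the keratin-positive and 11.4% toward the keratin-negative group. The median log2 ratio of these genes was 0.22 per 10000 UMIs and 1.61 per barcode. Relative to that median, Acta2, Tagln, Myh11, Mylk and Des were low and Cnn1 was high in keratin-positive barcodes on either scale. Per barcode, their log2 ratios were 0.23, -0.34, -0.06, 0.69 and -4.31, and that of Cnn1 was 2.75.

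The mix of the members within a group does not use the total of UMIs. A 3' library counts a molecule once whatever its length, so shares of UMIs are shares of molecules captured. Of 2573 member UMIs in keratin-positive barcodes, Acta2 took 48.1%, Tagln 22.9%, Myh11 11.2%, Mylk 10.5%, Cnn1 7.19% (6.22 to 8.26) and Des 0.117% (0.0241 to 0.340). Of 5494 in keratin-negative barcodes, Acta2 took 44.8%, Tagln 31.6%, Myh11 12.8%, Mylk 7.12%, Cnn1 1.16% (0.898 to 1.49) and Des 2.53% (2.13 to 2.98). The share of Myh11 thus differed least in points, whereas Cnn1 and Mylk took more of the keratin-positive mix and Tagln and Des more of the keratin-negative mix. The mix was alike in the 24 keratin-positive barcodes outside the basal or myoepithelial-like cluster, where Cnn1 took 9.98% and Des had 0 of 491 UMIs. In the 97 keratin-negative barcodes outside the mural-like cluster, Mylk took 10.8% (8.73 to 13.1), near its keratin-positive share. In the mural-like cluster Mylk took 6.48% (5.79 to 7.22). Tagln at 30.2%, Cnn1 at 2.57% and Des at 1.59% kept their direction in those 97 barcodes.

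When the groups were limited to keratin-positive barcodes of the basal or myoepithelial-like cluster (54) and keratin-negative barcodes of the mural-like cluster (85), a choice made after seeing the data, the levels of Acta2, Tagln, Myh11 and Mylk lay further apart and those of Cnn1 closer. Acta2 was at 31.9 (29.9 to 33.9) against 118 (113 to 123) per 10000, Tagln at 14.5 against 82.0, Myh11 at 7.40 against 32.1 and Mylk at 6.87 against 16.7. Cnn1 was at 4.24 (3.56 to 5.02) against 2.37 (1.72 to 3.19), 1.79-fold higher and so under the limit of 2. Des was at 0.0936 against 6.95. Here 5 of the 6 members passed the limit of 2 toward the mural-like cluster, where 13.8% of 5881 genes did, and 0 passed toward the basal or myoepithelial-like cluster, where 27.8% did. Per barcode, Acta2 was lower in these keratin-positive barcodes, 18.9 against 25.1 UMIs, and Mylk was 4.07 against 3.56, within counting error.

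**Figure D2:**
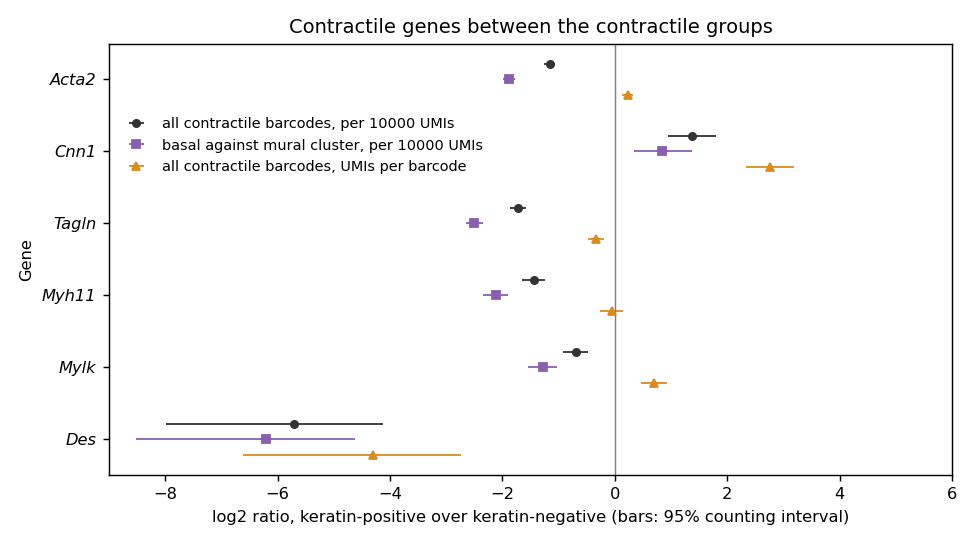
Log2 ratio of each detected gene between keratin-positive and keratin-negative contractile barcodes (x axis, with 95% counting intervals) on 3 measures: per 10000 UMIs in all contractile barcodes, per 10000 in the basal against the mural cluster, and UMIs per barcode. Des lies far below 0 and Cnn1 above 0 on every measure, whereas Acta2 and Mylk lie below 0 per 10000 and above 0 per barcode.

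Levels across all 24 clusters put the mural-like cluster first for each of the 6 detected members and the basal or myoepithelial-like cluster second for every one but Des. For Acta2 the order was the mural-like cluster at 118 per 10000, the basal or myoepithelial-like at 7.79 (7.32 to 8.27), the endothelial-like at 1.03 (0.913 to 1.17) and ductal-like cluster 10 at 0.897 (0.765 to 1.04), the last pair not differing beyond counting error. Per barcode, Cnn1 alone was highest in another cluster, the basal or myoepithelial-like. At a coarser resolution of 0.3 the mural-like barcodes fell in a cluster of 625 with others, and there Cnn1 and Mylk were highest in the basal or myoepithelial-like cluster.

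Outside the contractile barcodes the members were low, with a few exceptions by gene. With contractile barcodes left out, Mylk was at 0.760 (0.564 to 1.00) per 10000 in the fibroblast-like cluster, in 45 of 262 barcodes, where Acta2 had 1 UMI and Cnn1, Tagln and Myh11 had 0. Des, at 0.152 (0.0729 to 0.279), was also seen there. Acta2 was at 0.343 (0.290 to 0.404) in mucous acinar-like barcodes and at 0.329 (0.261 to 0.409) in endothelial-like ones, not differing beyond counting error, and Tagln was at 0.174 and 0.275. Both were far above lymphoid-like barcodes, where Acta2 was at 0.0219 (0.00712 to 0.0512) and Tagln at 0.0175 (0.00478 to 0.0449). Serous acinar-like barcodes, at a median of 28197 UMIs, had 49 UMIs over the 7 genes in 1296 barcodes, or 0.0127 per 10000.

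**Figure D3:**
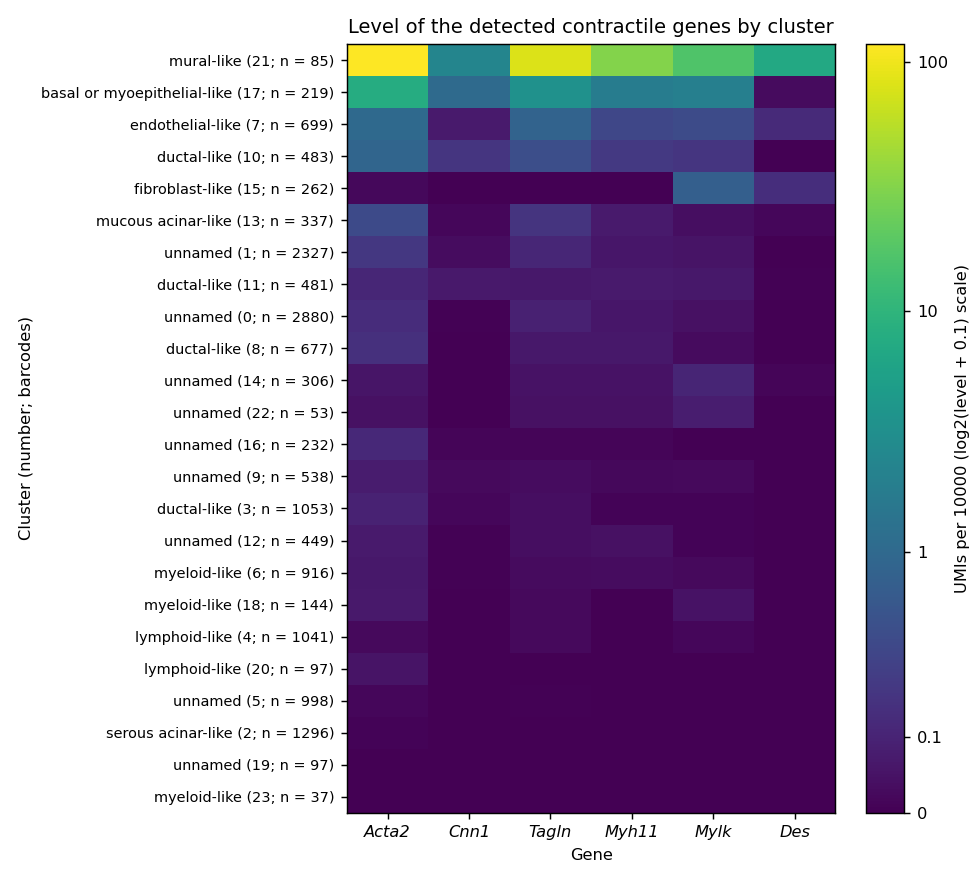
Level of the 6 detected genes (columns) in each of the 24 clusters (rows, with cluster number and barcodes), coloured by UMIs per 10000 on a log2(level + 0.1) scale and ordered by the summed level. The mural-like cluster is highest in all 6 columns, the basal or myoepithelial-like cluster is next in 5, and the fibroblast-like cluster shows Mylk and Des.

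The endothelial-like cluster held 34 keratin-negative contractile barcodes. Of these, 22 had at least 2 UMIs of mural markers, 19 had at least 2 of endothelial markers and 14 had both. Their Acta2 counts ran from 0 to 40 with a median of 2, the Tagln counts from 0 to 20 with a median of 2, and Des had 11 UMIs in 8 barcodes. Pecam1, an endothelial adhesion gene, had 42 UMIs in them and 3 in the mural-like cluster. Whether these droplets held more than 1 cell was not tested. Scrublet marked 0 barcodes as doublets, so it gave no usable call.

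The mural-like cluster was not uniform in Cnn1. It was split by Rgs5, a regulator of G protein signalling used as a pericyte marker, after its values had been seen. The 37 barcodes with 0 or 1 UMI of Rgs5 and the 48 with 2 or more had like depths, at medians of 1879 and 1873.5 UMIs. Cnn1 was at 4.27 per 10000 (2.98 to 5.95) in the first and 0.804 (0.347 to 1.58) in the second. Acta2 was at 153 (145 to 162) against 88.7 (83.0 to 94.8), Tagln at 106 against 62.6 and Myh11 at 37.0 against 28.1. Des was at 6.72 (5.06 to 8.74) against 7.13, within counting error. Cnn1 in the Rgs5-poor barcodes was thus as high per 10000 as in the keratin-positive barcodes of the basal or myoepithelial-like cluster, at 4.24. The parts were not named as cell types. Of the smooth muscle genes, Pln was at 8.79 in the Rgs5-poor against 5.53 in the other barcodes, and Casq2 at 1.71 against 3.32. The pericyte gene Cox4i2 was at 4.76 against 6.83. The intervals overlapped for Pln, Casq2 and Cox4i2, and also for the mural marker Rgs4. They lay apart for the mural marker Ndufa4l2, at 6.11 (4.53 to 8.05) against 15.3 (12.9 to 17.9). The mural marker Notch3 also lay apart, at 3.30 (2.17 to 4.80) against 7.74 (6.11 to 9.67).

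Within the basal or myoepithelial-like cluster the members were either nearly absent or abundant. Of 219 barcodes, 120 had 0 UMIs over the 7 genes, 31 had 1, 8 had 2 to 4, 6 had 5 to 9 and 54 had 10 or more. Keratin-positive barcodes made up 189 of the cluster, and 54 of them were contractile, or 28.6% (22.2 to 35.6). Depth did not separate them, with medians of 5053.5 UMIs in the 54 contractile and 5213 in the 135 other keratin-positive barcodes. The gate sets the gap in the members, and Mylk was the one with the most left in the other barcodes, at 0.526 (0.386 to 0.699) per 10000 in 34 of 135, where Acta2 was at 0.157 in 5.

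**Figure D4:**
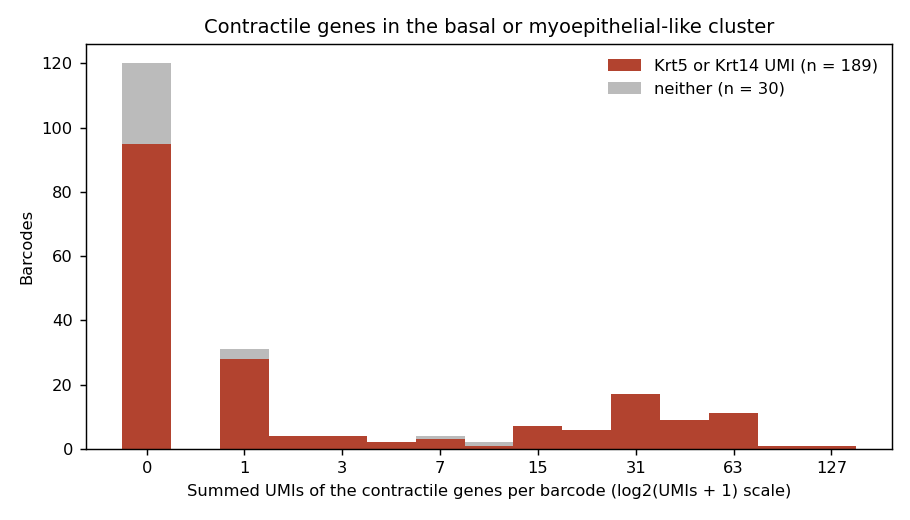
Number of barcodes (y axis) by their summed UMIs of the 7 genes (x axis, log2(UMIs + 1) scale) in the basal or myoepithelial-like cluster, with barcodes that had a Krt5 or Krt14 UMI in red (n = 189) and the others in grey (n = 30). A peak of 120 barcodes at 0 and a broad peak at 10 or more UMIs, 54 barcodes, are parted by 8 barcodes with 2 to 4 UMIs and 6 with 5 to 9.

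Genes that the gate did not use also differed between these keratin-positive barcodes. Of 55 tested genes of the contraction pathway, 27 were at least 2-fold higher and 0 at least 2-fold lower in the contractile barcodes, against 9.95% and 10.5% of all 8788 genes. Myl9, the regulatory light chain, was at 8.61 against 0.0559 per 10000, Tpm2, a tropomyosin, at 13.2 against 0.268, Cald1, caldesmon, at 3.49 against 0.492 and Lmod1, leiomodin, at 0.999 against 0.0336. The actins of every cell did not follow, with Actb at 45.4 against 39.0 and Actg1 at 42.9 against 46.9. Synm, synemin, an intermediate filament protein that pairs with desmin or vimentin, had 18 UMIs against 0, and Vim had 48 against 6.

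Basal markers divided between these barcodes. The contractile ones had more Trp63, at 1.44 against 0.559 per 10000 (log2 ratio 1.36, 0.75 to 1.97), and more Col17a1, at 0.967 against 0.358, Lamb3 and Lama3. They had less Krt15, at 0.343 against 2.35, and less Sfn, at 1.31 against 6.23. Itgb4, at 0.687 against 1.25, and Krt17, at 3.78 against 5.20, were also lower. Cdh3 and Dst were within counting error. Krt14 was at 8.02 against 11.8 and Krt5 at 2.18 against 3.00. By the same rule of largest folds, the genes beside the members and the pathway genes that were highest in the contractile ones included Pcp4, a calmodulin-binding peptide, at 7.99 against 0.0783 and Cck, the cholecystokinin gene, at 1.90 against 0.0336, and among the lowest were Ly6d, Sprr1a, Smoc2 and Ptn. Sox10, a transcription factor of glial cells and of salivary epithelium, named after its values were seen, had 19 UMIs against 5. Dcn, on the fibroblast list, was at 7.40 against 15.4, while 6 of the other 8 fibroblast genes were at 0 in the contractile ones.

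Of the 54 keratin-positive contractile barcodes in this cluster, 11 had 323 to 2152 UMIs of Smgc, a secretory protein gene of the glands, and the other 43 had 0 to 2. Of the 135 other keratin-positive barcodes of the cluster, 5 were rich in Smgc as well. Among contractile barcodes, 0 of the 24 keratin-positive ones of other clusters and 0 of the 182 keratin-negative ones were. The 11 contractile barcodes rich in Smgc were deeper than the other 43, at a median of 8212 against 3737 UMIs. Acta2 was at 18.2 per 10000 in them against 38.5 in the others, but the mean per barcode was near, 17.3 against 19.3 UMIs. Whether these droplets held another cell was not tested.

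Of the wider contraction pathway, 92 of 96 listed genes were in the matrix and 68 were tested between the keratin-positive and keratin-negative contractile barcodes. Of these, 8 were at least 2-fold higher in keratin-positive and 28 in keratin-negative barcodes, beside 19.5% and 11.4% of all tested genes. The median log2 ratio of the 68 was -0.64, against 0.22 for all tested genes. Per barcode these counts were 24 and 15, beside 75.8% and 4.77% of all tested genes, as that scale adds 1.39 to every log2 ratio. Between the basal or myoepithelial-like and mural-like clusters, 9 of 66 genes were higher in the former and 42 in the latter, beside 27.8% and 13.8% of all genes. Pathway genes were not held out of the clustering. Some of them, such as Pln, Lmod1 and Heyl, are also on the marker lists used to name clusters. These cluster counts are therefore not independent of how the clusters were made and named.

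Among thin filament genes, 2 of 15 were higher in keratin-positive and 4 in keratin-negative barcodes. Actg1, cytoplasmic gamma-actin, was 2.61-fold higher in keratin-positive barcodes and Actb was at 36.0 against 37.9 per 10000. Tpm1, Cald1, Smtn and Actn1 were 2.33 to 2.63-fold higher in keratin-negative ones. Actg2, the enteric smooth muscle actin, had 15 and 8 UMIs, a difference within counting error.

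Of 15 tested genes of myosin and its regulation, 1 was higher in keratin-positive and 5 in keratin-negative barcodes. Myl9, the light chain of smooth muscle, was at 6.29 per 10000 against 27.8, 4.42-fold higher in keratin-negative barcodes, whereas Myl12a, a widely expressed light chain, was at 3.17 against 1.44. Its close relative Myl12b was at 1.06 against 1.13, within counting error, and the essential light chain Myl6 was 1.57-fold higher in keratin-negative barcodes. Ppp1r14a, an inhibitor of myosin phosphatase, had 12 UMIs against 133, 12.4-fold higher in keratin-negative barcodes by level. Rock1, a kinase that inhibits the same phosphatase, was at 0.898 against 2.20, and Rhoa, the GTPase that activates Rock1, at 2.09 against 1.91.

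Intermediate filament and adhesion genes had 6 of 15 higher in keratin-negative barcodes and 1, Pgm5, higher in keratin-positive ones. Beside Des, Vim was 6.05-fold and Csrp2 9.20-fold higher in keratin-negative barcodes, and Itga7, a laminin receptor of muscle, had 39 UMIs there and 0 in keratin-positive ones. Synm, by contrast, was near equal, at 0.495 against 0.514 per 10000.

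Of 7 tested transcription genes, 1 was higher in keratin-positive and 4 in keratin-negative barcodes, all on few UMIs. Myocd, a cofactor that turns on smooth muscle genes, had 14 UMIs in keratin-negative and 0 in keratin-positive barcodes, and its partner Srf had 7 and 21. The Notch targets Heyl and Hey2 had 17 and 11 UMIs in keratin-negative barcodes and 1 each in keratin-positive ones, and Foxf1 had 10 and 1.

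Of 16 tested receptor and channel genes 9 were higher in keratin-negative barcodes, and among them were the calcium pump inhibitor Pln (138 against 5 UMIs), both subunits of the nitric oxide receptor, Gucy1a1 (113 against 6) and Gucy1b1 (49 against 1), the ATP-gated channel P2rx1 (39 against 1) and the endothelin receptors Ednra (36 against 5) and Ednrb (24 against 3). Higher in keratin-positive barcodes were 3 of the 16, a share near the 19.5% of all genes. Chrm3, the muscarinic receptor of salivary glands, had 12 UMIs against 2, a log2 ratio of 2.42 (0.25 to 5.62), and Gnaq and Plcb4, which act below such receptors, were 3.09-fold and 2.18-fold higher.

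**Figure D5:**
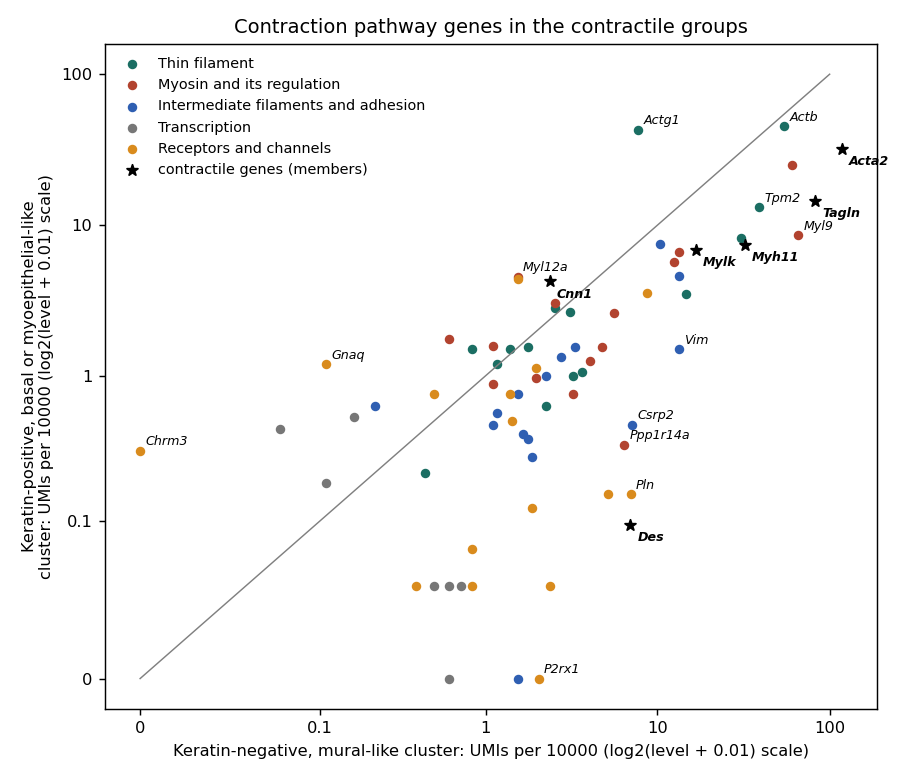
Level of each tested pathway gene in keratin-negative barcodes of the mural-like cluster (x axis) and keratin-positive barcodes of the basal or myoepithelial-like cluster (y axis), in UMIs per 10000 on log2(level + 0.01) scales, coloured by list, with the detected members as stars and a line of equality. Acta2, Tagln, Myh11, Mylk and Des lie below the line with Myl9, Vim and Pln, and Cnn1 lies above it with Myl12a, Gnaq and Actg1.

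Outside these lists, the largest folds between all keratin-positive and keratin-negative contractile barcodes, the keratins that made the groups aside, were Krt17 (134 UMIs against 1), Smgc (10774 against 214, with 10615 of the former in the 11 barcodes rich in it), Mia, Trim29, Lcn2, Trp63, Ecrg4 and Lgals7 toward the keratin-positive group. Toward the keratin-negative group they were Sncg, Rgs4, Ebf1, Olfr558, Rasgrp2, Rarres2, Ndufa4l2, Esam, Aspn and Mustn1. Sncg, gamma-synuclein, had 201 UMIs against 0 and was at least 75.1-fold higher with 3 counts as the floor, and Mustn1 had 434 against 3.

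The genes most like each member over the 24 clusters were found by Pearson's r of log2(level + 0.1), as a description, since clusters share free RNA and differ in depth. Myl9 was among the 3 nearest to Acta2 (r = 0.940), Tagln (0.957), Myh11 (0.956) and Mylk (0.975). Cck was nearest to Cnn1 (0.972). Nearest to Des were Gucy1a1 (0.995), Gucy1b1 (0.994) and Aspn (0.985). Among the members themselves, Tagln and Myh11 were the closest pair (0.994) and Cnn1 and Des the furthest apart (0.748).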

How the data were processed

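The authors deposited raw UMI counts in 1 matrix, with no normalization. Its header names Cell Ranger 6.0.1, and the libraries were of the 10x 3' kind. The submitters' processing notes also name Seurat 4.1.1 and the build mm10. All 15707 barcodes were kept and treated as 1 sample.

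The members and gene lists were chosen with earlier results of these data known. For clustering, counts were scaled to 10000 per barcode and logged. From the 2000 most variable genes 8, the members and keratins among them, were dropped, and barcodes were clustered on 20 principal components by the Louvain method at a resolution of 0.5 (Seurat 5.3.0, R 4.3.3), giving 24 clusters. A marker was counted for a cluster if detected in 25% of the barcodes there and more abundant than elsewhere. A name needed 3 markers of a list and a leading gene among them, was given by judgement after the levels had been seen, and was not given below a median of 500 genes.

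A level is the sum of UMIs over a group per 10000 UMIs of the group, with an exact Poisson interval. Shares have exact Clopper-Pearson intervals and log2 ratios exact conditional binomial intervals, all at 95%. Medians of log2 ratios over genes had a count of 0.5 added. A gene was tested at 10 or more UMIs over both groups, and called at a 2-fold difference in level, with no p-value. The genes named were the members, the lists, the 10 largest folds in each direction at 50 or more UMIs, and the 3 genes most like each member at 100 or more UMIs. The folds were also ranked within the basal or myoepithelial-like cluster. The Smgc split of that cluster and the Rgs5 split of the mural-like cluster were chosen after values were seen.

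Positions are from GENCODE M21, and start windows from RefSeq. Myh11 and Tagln had no window. None of the windows of 90 bases in the last 500 bases of the members' transcripts was shared with another gene. Tagln, Mylk and Des overlap genes of the other strand, and no source used here gives the strand setting of the counting. The methods were tested on simulated data. Other steps used Python 3.11.15, numpy 2.4.6, scipy 1.17.1, pandas 2.3.3, scanpy 1.11.5 and matplotlib 3.10.9.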

Additional observations from a re-analysis of the deposited data

How the results depend on the processing

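No paired analysis was possible because all samples lie in 1 matrix with no map from barcodes to samples, and no replicate was left out for the same reason. All values below are log2 ratios of keratin-positive over keratin-negative contractile barcodes unless they are called numbers. Tagln and Des kept their direction under every alternative run, Myh11 under every one but means per barcode, where it was within counting error of 0, and Cnn1 under every one but whole clusters. A gate at 2 UMIs gave -1.03 for Acta2, and one at 5 UMIs gave -1.46 for Acta2, -2.01 for Tagln, -1.74 for Myh11 and -0.96 for Mylk. A gate at 30 UMIs per 10000 left 106 keratin-negative barcodes in number. Asking for both keratins left 35 keratin-positive barcodes, with -1.43 for Acta2 and -1.88 for Tagln. Leaving out the highest Scrublet scores gave -1.28 for Acta2, and totals without the 20 most abundant transcripts gave -1.32 for Acta2 and -1.89 for Tagln. Whole clusters in place of gates (219 and 85 barcodes) gave -3.92 for Acta2, -1.17 for Cnn1, -4.55 for Tagln, -4.13 for Myh11, -3.05 for Mylk and -8.28 for Des. Of the 219 barcodes there, only 54 keratin-positive and 1 keratin-negative were contractile. Thinning to 500 UMIs gave -0.48 for Acta2, 2.22 for Cnn1, -1.06 for Tagln, -0.08 for Mylk and -2.64 for Des. The value for Des rests on 1 random draw from 3 UMIs in 2 keratin-positive barcodes.

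The following were chosen after seeing the data. Contractile barcodes of the basal or myoepithelial-like and mural-like clusters (85 keratin-negative) gave -1.89 for Acta2, 0.84 for Cnn1, -2.50 for Tagln, -2.12 for Myh11 and -1.28 for Mylk. Barcodes chosen by basal or mural markers, with no condition on the members, gave -2.10 for Acta2, 0.69 for Cnn1, -2.78 for Tagln, -2.36 for Myh11 and -1.47 for Mylk. Means per barcode gave 0.23 for Acta2, 2.75 for Cnn1, -0.34 for Tagln, -0.06 for Myh11 and 0.69 for Mylk, with 24 and 15 pathway genes at least 2-fold higher in keratin-positive and keratin-negative barcodes, beside 75.8% and 4.77% of all genes. This scale adds 1.39 to every log2 ratio, which turns Acta2 and Mylk by construction. Medians over barcodes gave -0.17 for Acta2, -0.70 for Tagln, -0.71 for Myh11 and 0.03 for Mylk. The cause of the turn of Mylk on the median was not tested. Thinning to 1000 UMIs before the keratin call left 48 keratin-positive barcodes. The number of molecules limits Des and Oxtr most, with 3 and 0 UMIs in keratin-positive contractile barcodes.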
